A study of Mus musculus with 5 samples.

Results

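This account describes the genes of the cell cycle and of DNA replication in adherent peritoneal macrophages of c-Jun-deleted and wild-type mice. The members are a list of 46 genes by symbol: 13 replication genes, 28 genes that act in S, G2 and mitosis, named mitotic genes here, and 5 G1 cyclins. They were found by matching the transcript accession of each probe that is no control to a gene symbol, and all 46 were on the array, of 21154 symbols in all. The members had 61 probes.

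The c-Jun-deleted group is labelled c-JunΔLysM with the genotype cJunfl/fl LysMCre-/+ (2 arrays, numbered 1 and 9), and the wild-type group consists of littermates (3 arrays, numbered 5, 11 and 14). All mice were 8 weeks old, of either sex, on a 129/C57Bl6 background, and received no treatment. LysMCre is a recombinase expressed from the Lyz2 locus, so it acts in cells that use Lyz2, among them macrophages and neutrophils, and it leaves Jun in other cells of the preparation. The source names of the c-Jun-deleted samples write c-JunΔMx, a name for another Cre line, and the data do not settle which is right. Peritoneal cells were plated overnight, floating cells were removed, and the RNA of the attached cells was hybridised to 1-colour Agilent arrays. The source names number the mice within each genotype, and if the samples are not separate animals, p-values measure only the spread between samples.

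The cell cycle runs from G1, where D and E cyclins drive cells towards DNA synthesis, through S phase, where the MCM helicase and the replication fork copy the genome, to mitosis, where Cdk1 with B cyclins starts the division of the chromosomes. Replication genes are switched on at the G1 to S transition by E2F factors, and mitotic genes later, by MuvB complexes with Foxm1. Resident macrophages of the peritoneal cavity renew themselves by division in place. c-Jun is a subunit of the AP-1 transcription factor, and in mouse fibroblasts it is known to favour Ccnd1 and to hold down the cell cycle inhibitor Cdkn1a.

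All values below are log2 of the processed signal relative to the 75th percentile of the same array. A level of 1 is thus 2-fold brighter than that percentile, and levels are compared between arrays for the same probe, never between probes. A difference is the c-Jun-deleted mean minus that of the wild type, with the standard error (SE) of the limma fit, and adjusted p-values are Benjamini-Hochberg values over all 27956 genes tested. Fewer cells of a type and less RNA per cell cannot be told apart in such bulk RNA.

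Between 52.0% and 59.8% of the probes of an array were well above background, and no probe was saturated. Jun was at 2.76 and 2.71 in c-Jun-deleted 1 and 9, against 3.21, 3.75 and 3.17 in wild-type 5, 11 and 14, a difference of -0.64 (SE 0.23, adjusted p = 0.391). The groups did not overlap for Jun, and whether its probe lies in the deleted part was not tested. Lyz2, the lysozyme gene, was at 4.46 and 8.52 in the c-Jun-deleted arrays, against 8.70, 8.76 and 9.18 in the wild-type arrays, so that c-Jun-deleted 1 stood apart from all others. All 14 macrophage markers on the array were above background on every array, with summed linear levels of 1039 and 1320 in c-Jun-deleted 1 and 9 and of 1734, 1352 and 1777 in wild-type 5, 11 and 14. Lyz2, the locus of LysMCre, is among these markers and enters the sums. Taken without Lyz2 at the levels given above, the sums of the groups overlap, so the gap between them rests on Lyz2. The median marker, in log2 relative to the wild-type mean, was at -0.35 and -0.44 in c-Jun-deleted 1 and 9. In wild-type 5, 11 and 14 it was at 0.13, -0.13 and 0.09. By group means, 11 of the 14 were lower in the c-Jun-deleted arrays and 3 higher. B cell markers summed to 426 and 625 in the c-Jun-deleted arrays and to 126, 110 and 68.5 in the wild-type arrays, with all 19 markers higher in both c-Jun-deleted arrays than in any wild-type array. B cells divide too, and the part of these other cells in the values below was not tested. Erythroid markers summed to 11.1 and 23.5 in the c-Jun-deleted arrays and to at most 1.82 in the wild-type arrays, while Alas2 and Klf1 were above background on no array.

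Of the 46 members, 43 gave a signal well over background in 2 or more of the 5 arrays and were tested, and 39 did so in all 5. Aurkb and Kif11 were above background on 2 arrays, Melk and Kif2c on 4. Ccne2, the partner cyclin of Ccne1, was above background on no array. Ttk, a kinase of the spindle checkpoint, was above it in c-Jun-deleted 1 alone, and Cenpf, a kinetochore protein, in wild-type 5 alone. These 3 genes were not tested. By array, 44 and 39 members were above background in c-Jun-deleted 1 and 9, and 42, 43 and 41 in wild-type 5, 11 and 14.

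No member passed limma's test at an adjusted p of 0.05, nor did any of the 27956 genes (0% called). At an unadjusted p of 0.05, 2 of 43 members passed, against 12.1% of all genes: Ccne1, higher in the c-Jun-deleted arrays (5.62% of all genes were), and Kif2c, lower in them (6.52% of all genes were). Without wild-type 11, 6 members passed that threshold, against 16.1% of all genes. The groups did not overlap for 8 members, against 33.5% of all genes. Mcm2 and Ccne1 lay above the wild-type range (13.3% of all genes did), and Mcm3, Tyms, Kif2c, Mki67, Aurka and Cdca8 lay below it (20.2% of all genes). Without wild-type 11, 13 members lay above the wild-type range and 6 below it, against 19.9% and 33.7% of all genes, and 53.6% of all genes did not overlap in either direction. Without c-Jun-deleted 1, 4 lay above and 18 below, against 24.8% and 36% of all genes. Without wild-type 5, 2 lay above and 15 below, against 18.6% and 25.4% of all genes.

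By direction alone, 29 of 43 members were lower in c-Jun-deleted arrays and 14 higher, against 61.4% lower among all genes. The arms differed in these counts: 23 of 26 mitotic genes were lower, 6 of 13 replication genes were lower, and none of the 4 G1 cyclins was. Median differences were -0.52 for the mitotic genes, 0.01 for the replication genes and 0.37 for the G1 cyclins, beside -0.09 for all genes. Leaving out wild-type 11 moved the mitotic median to 0.02, with 14 genes higher and 12 lower, whereas the medians of replication genes and G1 cyclins became 0.08 and 0.85. Centring on the array median in place of the 75th percentile moved the median of all genes by more than 0.1, to 0.13, and gave 5 mitotic genes higher and 21 lower, and 9 replication genes higher and 4 lower.

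**Figure D1:**
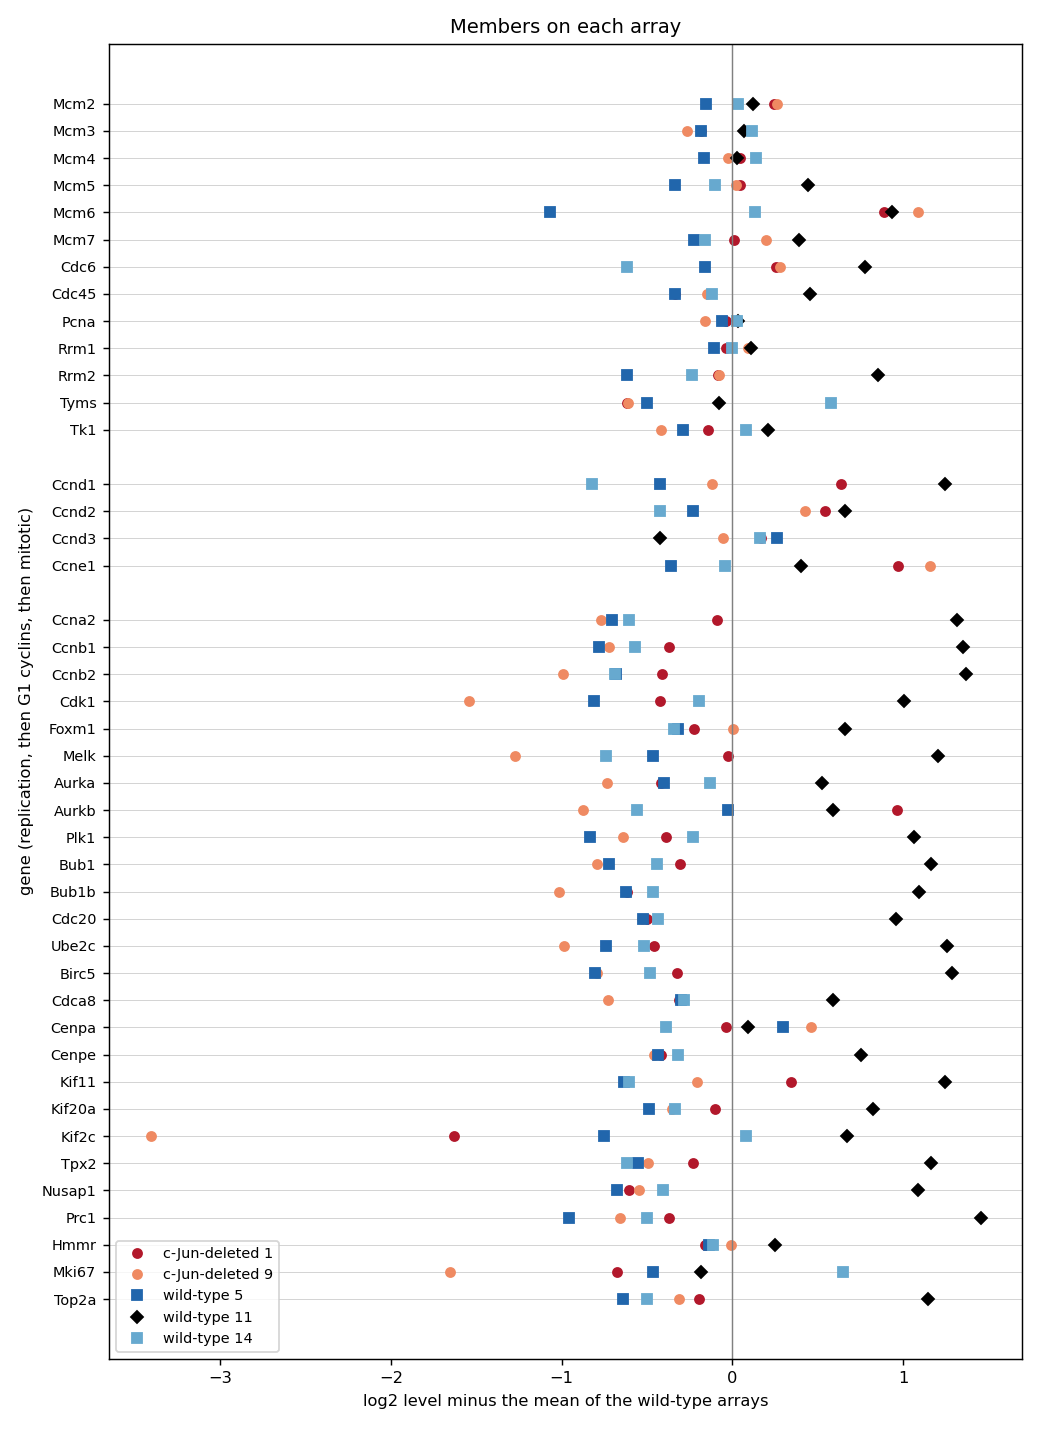
Level of each of the 43 tested genes on each array, as log2 difference from the mean of the 3 wild-type arrays (x axis), with genes by arm down the page. Circles are c-Jun-deleted arrays, squares and the black diamond wild-type arrays; among the mitotic genes the diamond of wild-type 11 lies to the right of all other points for 23 of 26 genes.

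One wild-type array stood apart in the mitotic genes. Wild-type 11 had the highest level for 23 of 26 mitotic genes (88.5%), against 22.3% of all genes, and stood more than 1 log2 unit above the next array for 16 of them (61.5%), against 2.37% of all genes. The median mitotic gene was 3.06-fold brighter in wild-type 11 than the mean of the other 4 arrays, and the median replication gene 1.32-fold. Replication genes were highest in wild-type 11 for 8 of 13 (61.5%), and none of them stood more than 1 log2 unit above the next array. At the other end, c-Jun-deleted 9 was the lowest array for 14 of 26 mitotic genes (53.8%), against 28.5% of all genes. Wild-type 5 was the lowest for 8 (30.8%), against 9.35% of all genes.

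Averaged over the 26 mitotic genes, levels relative to the wild-type mean were -0.31 in c-Jun-deleted 1 and -0.77 in c-Jun-deleted 9, against -0.55, 0.92 and -0.38 in wild-type 5, 11 and 14. Wild-type 5 and 14 thus lay between c-Jun-deleted 9, the lowest, and c-Jun-deleted 1. The same average over the replication genes was 0.00 and 0.02 in the c-Jun-deleted arrays, against -0.32, 0.33 and -0.01 in wild-type 5, 11 and 14. Over the G1 cyclins it was 0.58 and 0.35, against -0.19, 0.47 and -0.28. The range over the 5 arrays had a median of 1.89 for mitotic genes and 0.54 once wild-type 11 was left out; for replication genes these medians were 0.63 and 0.41, and for all genes 0.71 and 0.59.

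**Figure D2:**
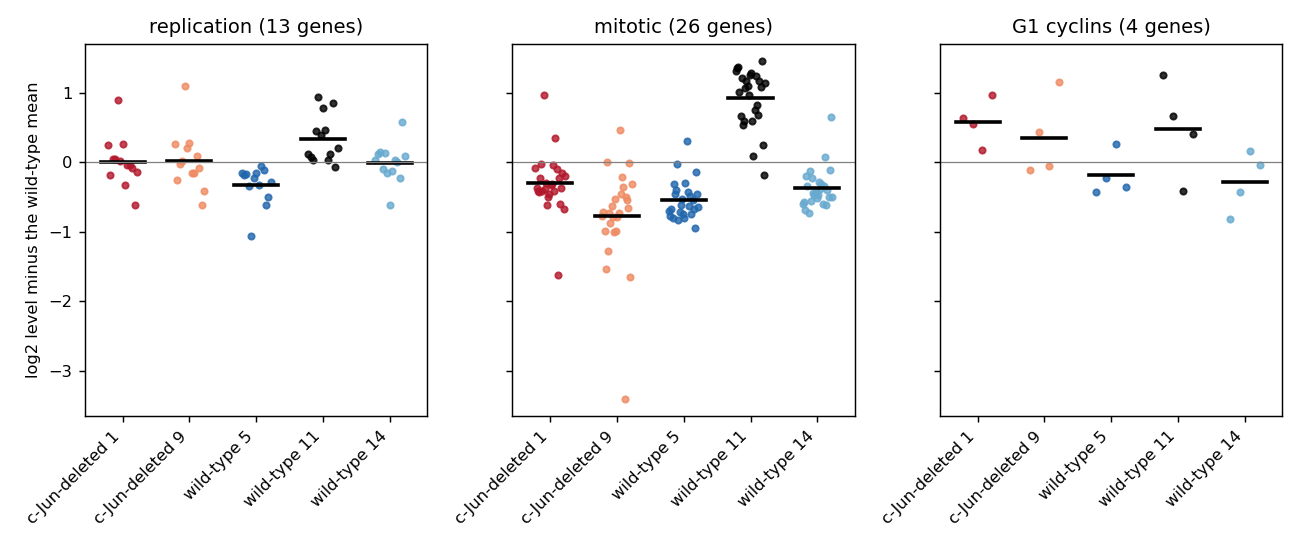
Each point is 1 gene, placed by its log2 level minus the mean of the wild-type arrays (y axis) on each array (x axis), with a panel for each arm and a black bar at the mean over genes. In the mitotic panel the bar of wild-type 11 is at 0.92 and those of the other 4 arrays lie between -0.77 and -0.31.

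Other measurements set wild-type 11 apart as well. It was the only array with Y-linked Ddx3y and Eif2s3y above background, at 1.35 and 3.27, whereas Xist, the RNA of the inactive X chromosome, was at -4.53 there, against 0.57 and 0.74 in the c-Jun-deleted arrays and 0.20 and -0.04 in wild-type 5 and 14. It was the highest array for 14 of 19 T and NK cell markers, for 10 of 14 tested mesothelial and stromal markers, and the lowest for 9 of 13 tested markers of large peritoneal macrophages. Of all genes, wild-type 11 was the highest array for 22.3% and the lowest for 21.2%. T and NK markers summed to 63.8 and 84.6 in c-Jun-deleted 1 and 9 and to 27.2, 65.4 and 22.1 in wild-type 5, 11 and 14. Averaged over these markers in log2, relative to the wild-type mean, they were at 0.19 and 0.65, against -0.77, 1.51 and -0.74. The markers of large peritoneal macrophages summed to 1662 and 944 in the c-Jun-deleted arrays and to 1374, 1273 and 1326 in wild-type 5, 11 and 14, and all 13 tested had a higher mean in the c-Jun-deleted group, with a median difference of 1.02, or 0.67 without wild-type 11. Mesothelial and stromal markers summed to 3.59 and 4.98 in the c-Jun-deleted arrays and to 5.36, 12.3 and 9.14 in the wild-type arrays, with Lrrn4 above background on none. Sex and these markers moved together with the mitotic genes in 1 array, and the part of each in the result was not tested.

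The mitotic promoters share letters already known from cell cycle promoters, the class from which these genes were listed. In windows of 250 bases before to 50 bases after the start of RefSeq transcripts (GRCm38.p6), which 37 of the 46 members had, 3 motifs of cell cycle promoters and the AP-1 motif were searched on both strands. The first was the CCAAT box. The cell cycle homology region (CHR), which MuvB complexes bind, was searched as TTTGAA, which is its commonest form, and also in a variant form, TTCGAA. The E2F motif was searched as TTTCGCG, with a middle of other letters as TTTGGCG, and in a further form as TTTCCCG. For AP-1 the letters were TGACTCA, whose reverse complement reads TGAGTCA. CHR and CCAAT stood together in 18 of 24 mitotic windows (75%), in 3 of 13 replication windows (23.1%) and in 7.52% of all 32851 windows. Counted singly, CCAAT was in 83.3% of mitotic and 76.9% of replication windows, against 37.4% of all. CHR was in 79.2% of mitotic and 23.1% of replication windows, against 19.2% of all. E2F matches were in 20.8% of mitotic and 38.5% of replication windows, against 5.58% of all. AP-1 letters were in no window of a member and in 5.2% of all windows. These matches are a description of letters in short windows.

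Below are the 140 bases before the start, 5′ to 3′ on the gene's strand, of 4 mitotic genes that stood more than 1 log2 unit higher in wild-type 11 than in any other array, and of Mcm6, a replication gene that did not. The 4 were chosen because they hold both CHR and CCAAT in the bases shown, as 6 mitotic windows did, and of these 6 stood farthest apart in wild-type 11, so they do not stand for all mitotic genes. Capitals mark matches to CCAAT, CHR and E2F on either strand, so that ATTGG is CCAAT and TTCAAA is TTTGAA read on the other strand.
Prc1, chr7:80294336-80294475, plus strand: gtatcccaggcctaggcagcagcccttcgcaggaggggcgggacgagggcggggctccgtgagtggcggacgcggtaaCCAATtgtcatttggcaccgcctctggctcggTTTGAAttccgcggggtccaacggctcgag
Ube2c, chr2:164769789-164769928, plus strand: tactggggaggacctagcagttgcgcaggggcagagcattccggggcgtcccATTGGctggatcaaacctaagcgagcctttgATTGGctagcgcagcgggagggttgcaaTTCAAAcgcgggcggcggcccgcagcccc
Cdc20, chr4:118437344-118437483, minus strand: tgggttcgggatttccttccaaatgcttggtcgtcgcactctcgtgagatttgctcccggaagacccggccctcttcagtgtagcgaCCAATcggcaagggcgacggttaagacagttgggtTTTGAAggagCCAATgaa
Top2a, chr11:99024190-99024329, minus strand: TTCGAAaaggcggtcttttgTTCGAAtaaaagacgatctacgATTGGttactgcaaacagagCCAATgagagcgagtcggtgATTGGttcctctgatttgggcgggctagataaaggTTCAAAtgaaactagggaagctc
Mcm6, chr1:128359706-128359845, minus strand: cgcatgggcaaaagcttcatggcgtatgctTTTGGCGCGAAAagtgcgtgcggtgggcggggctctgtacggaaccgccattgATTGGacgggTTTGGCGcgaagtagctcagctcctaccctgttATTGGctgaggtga
Of the 16 mitotic genes that stood more than 1 log2 unit above the next array in wild-type 11, 14 had a window, and 9 of these held a CHR match; Birc5, Ccnb1, Cenpe, Melk and Nusap1 did not. Of the 10 other tested mitotic genes, 7 had a window and all 7 held one. In the 4 mitotic windows shown a CHR match lies close to the start, with its first base at 30 bases before it in Prc1, 29 in Ube2c, 18 in Cdc20 and 23 in Top2a, and CCAAT matches lie upstream of it; Cdc20 has a further one downstream, and Top2a further CHR matches upstream. Mcm6 has CCAAT and E2F matches and no CHR match, and 2 of its E2F matches overlap. Prc1 has another listed start nearby, not shown, and the windows of Ccne1 and Kif2c differ from these: that of Ccne1 holds none of the motifs and that of Kif2c a CHR match alone.

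**Figure D3:**
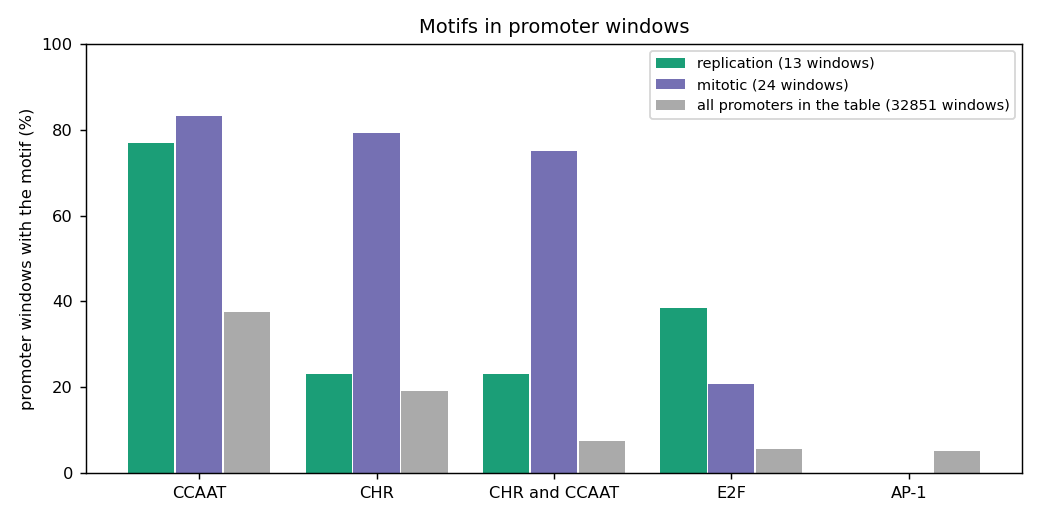
Percentage of promoter windows that hold each motif (y axis, from 0) for replication genes, mitotic genes and all promoters in the RefSeq table. CHR and CCAAT together are in 75% of mitotic windows, 23.1% of replication windows and 7.52% of all windows.

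Among the replication genes, the 6 subunits of the MCM2-7 helicase, which unwinds DNA at the fork, had differences between -0.22 and 0.99. Mcm2 was at 0.25 and 0.27 in c-Jun-deleted 1 and 9, against -0.15, 0.13 and 0.04 in wild-type 5, 11 and 14. Its groups did not overlap, yet the difference was small, 0.25 (SE 0.15, adjusted p = 0.533). Mcm3 was at 3.06 and 2.98 in the c-Jun-deleted arrays, against 3.06, 3.32 and 3.36 in the wild-type arrays, a difference of -0.22 (SE 0.16, adjusted p = 0.588). The lowest wild-type array and c-Jun-deleted 1 were nearly equal for it. Mcm5 was at 0.86 and 0.83 in the c-Jun-deleted arrays, inside the wild-type values of 0.47, 1.25 and 0.71, with a difference of 0.03 (SE 0.27, adjusted p = 0.968).

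Mcm6 had the widest range of the replication genes. It was at 4.10 and 4.30 in c-Jun-deleted 1 and 9, against 2.15, 4.15 and 3.35 in wild-type 5, 11 and 14, and the difference of 0.99 (SE 0.61) had an adjusted p of 0.540. Wild-type 11 was as high as the c-Jun-deleted arrays, and wild-type 5 was the low one. In limma the difference was 1.45 without wild-type 11 (adjusted p = 0.278) and 0.46 without wild-type 5 (adjusted p = 0.695). Within slide 1 and slide 2 it was 1.95 and 0.56. Mcm4 and Mcm7 differed by 0.01 and 0.10. Cdc6, which loads the helicase onto origins, differed by 0.27, and Cdc45, a part of the active helicase, by -0.24; both were highest in wild-type 11.

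Of the genes of the fork and of nucleotide supply, 4 of 5 had a negative difference, none of them past the test. Pcna, the sliding clamp of the polymerases, was at 4.75 and 4.63 in the c-Jun-deleted arrays, against 4.73, 4.82 and 4.82 in the wild-type arrays, with a difference of -0.10 (SE 0.14, adjusted p = 0.782). All 5 arrays lay within 0.19 of each other, and the sign turned under quantile normalisation and median centring. Rrm2, the regulated subunit of ribonucleotide reductase, was at 0.44 and 0.44, against -0.10, 1.38 and 0.29, a difference of -0.08 (SE 0.47, adjusted p = 0.953). Here wild-type 11 stood 0.93 above the next array, and without it the difference was 0.34. Rrm1, the constant subunit, differed by 0.03.

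Tyms, thymidylate synthase, was at -2.65 in both c-Jun-deleted arrays, against -2.54, -2.11 and -1.46 in wild-type 5, 11 and 14. The groups did not overlap, with a difference of -0.61 (SE 0.34, adjusted p = 0.507), and wild-type 14 was the highest array. Tk1, the thymidine kinase of S phase, was at 0.85 and 0.58, against 0.71, 1.20 and 1.07, with a difference of -0.28 (SE 0.21, adjusted p = 0.609) and an overlap between c-Jun-deleted 1 and wild-type 5.

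Among the G1 cyclins, which bind Cdk4, Cdk6 or Cdk2 and bring cells into S phase, Ccne1 differed most. It was at 1.52 and 1.71 in c-Jun-deleted 1 and 9, against 0.19, 0.96 and 0.51 in wild-type 5, 11 and 14. Both c-Jun-deleted arrays were above every wild-type array, by a mean of 1.06 (SE 0.27), or 2.09-fold, but the adjusted p was 0.284. A second probe of Ccne1 was at -2.17 and -1.92 in the c-Jun-deleted arrays, against -3.79, -3.46 and -3.84 in the wild-type arrays, again without overlap, with a difference of 1.65. Without wild-type 11 the difference of the first probe was 1.27 (adjusted p = 0.187), and it was 1.33 within slide 1 and 0.98 within slide 2. The authors' deposited table, which lists 1709 probes, held both Ccne1 probes, and its group means differed by 1.06 and 1.65.

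Ccnd1, the cyclin most often tied to growth factor signals, was at -0.41 and -1.17 in the c-Jun-deleted arrays, against -1.48, 0.19 and -1.87 in the wild-type arrays. Wild-type 11 was the highest array and the other wild-type arrays the lowest, so the difference of 0.26 (SE 0.70, adjusted p = 0.896) was smaller than the spread within the wild type. Leaving out wild-type 11 gave 0.88 (adjusted p = 0.329), leaving out c-Jun-deleted 1 gave -0.12, and leaving out wild-type 14 gave -0.15. Ccnd2, another D cyclin, had the same order of arrays, with 1.89 and 1.77 against 1.11, 2.00 and 0.92, and a difference of 0.48 (SE 0.36, adjusted p = 0.603). It came to 0.81 without wild-type 11 (adjusted p = 0.202) and to 0.27 at the lowest with another array left out.

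Ccnd3 went the other way in wild-type 11. It was at 5.64 and 5.42 in the c-Jun-deleted arrays, against 5.74, 5.06 and 5.64 in the wild-type arrays, with a difference of 0.06 (SE 0.26, adjusted p = 0.944). Wild-type 11 was the lowest array, and without it the difference was -0.16. The sign also turned without c-Jun-deleted 1, to -0.06. The second probe of Ccnd3 differed by -0.07, opposite in sign to the first.

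**Figure D4:**
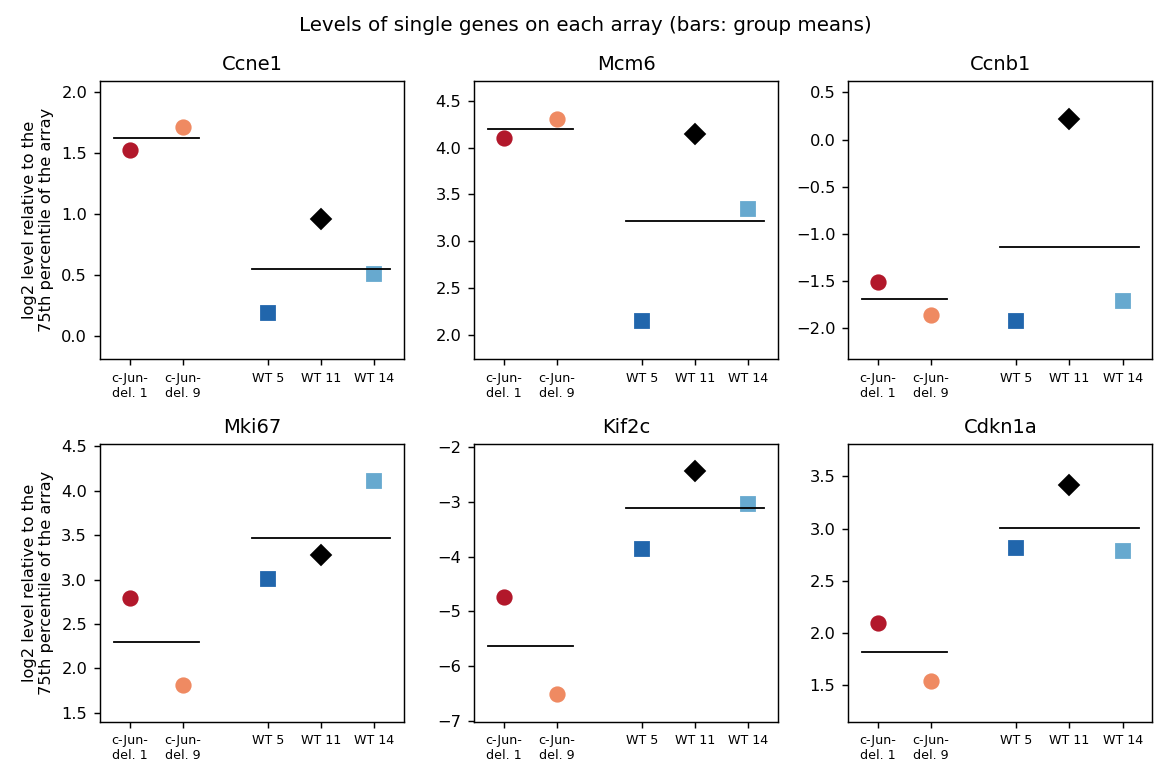
Log2 level relative to the 75th percentile of the array (y axis) of 6 genes on each array (x axis), with bars at the group means. Both c-Jun-deleted arrays are above all wild-type arrays for Ccne1 and below them for Mki67, Kif2c and Cdkn1a, Mcm6 overlaps, and Ccnb1 is set apart by wild-type 11 at 0.21.

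Of the cyclins and the kinase that drive entry into mitosis, Ccnb1, the B cyclin that activates Cdk1, was at -1.51 and -1.86 in the c-Jun-deleted arrays, against -1.92, 0.21 and -1.71 in the wild-type arrays. The value of c-Jun-deleted 9 lay between those of wild-type 5 and 14 and that of c-Jun-deleted 1 above both, and the difference of -0.55 (SE 0.71, adjusted p = 0.767) became 0.13 without wild-type 11. All 3 probes of Ccnb1 were highest in wild-type 11. Cdk1 itself was at -1.67 and -2.79, against -2.05, -0.24 and -1.44, a difference of -0.98 (SE 0.65, adjusted p = 0.560) that came to -0.48 with wild-type 11 left out and to -0.43 with c-Jun-deleted 9 left out. The low array for Cdk1 was c-Jun-deleted 9. Ccna2, the A cyclin of S phase and G2, and Ccnb2 differed by -0.43 and -0.70, and without wild-type 11 by 0.23 and -0.02.

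Among mitotic kinases, checkpoint genes and Foxm1, 6 of 7 tested genes were lower in the c-Jun-deleted arrays, and 3 of 7 without wild-type 11. Aurka, the kinase of the spindle poles, was at -0.29 and -0.61 in the c-Jun-deleted arrays, against -0.28, 0.65 and -0.01 in the wild-type arrays. Its groups did not overlap, with a difference of -0.58 (SE 0.32, adjusted p = 0.507), although c-Jun-deleted 1 and wild-type 5 were 0.02 apart. Without wild-type 11 the difference was -0.31. Plk1, which acts with Cdk1 from mitotic entry on, and the checkpoint kinase Bub1 differed by -0.52 and -0.55, and by 0.02 and 0.03 without wild-type 11. Bub1b, another checkpoint gene, differed by -0.82 and, without that array, by -0.27. Melk, a kinase of dividing cells, differed by -0.65, Foxm1, the transcription factor of this programme, by -0.11, and Aurkb, the kinase of the chromosomal passenger complex, by 0.04.

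Cdc20, which activates the anaphase-promoting complex, and Ube2c, the ubiquitin-conjugating enzyme of that complex, differed by -0.52 and -0.72 with wild-type 11 and by -0.03 and -0.09 without it. Of the kinetochore and passenger genes, Cdca8, a scaffold of the passenger complex, was at 1.21 and 0.79 in the c-Jun-deleted arrays, against 1.22, 2.10 and 1.23 in the wild-type arrays. The groups did not overlap, by a margin of 0.01 between c-Jun-deleted 1 and wild-type 5, and the difference was -0.52 (SE 0.35, adjusted p = 0.567), or -0.22 without wild-type 11. Birc5, also of that complex, had 3 probes, all highest in wild-type 11, and differed by -0.56, or 0.08 without that array. The kinetochore motor Cenpe differed by -0.44 and by -0.06 without it. Cenpa, the histone that marks centromeres, was not highest in wild-type 11 and differed by 0.21.

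Among the spindle genes, Kif2c, a kinesin that takes microtubules apart at their ends, was at -4.74 and -6.52 in c-Jun-deleted 1 and 9, against -3.86, -2.44 and -3.03 in wild-type 5, 11 and 14. Both c-Jun-deleted arrays were below every wild-type array, but c-Jun-deleted 9 was not above background. The fitted difference was -2.52 (SE 0.68, adjusted p = 0.300), and no fold is given because 1 of its 2 c-Jun-deleted values lies under background; it was -2.18 when wild-type 11 was left out, -1.63 when c-Jun-deleted 9 was, and -0.70 after normexp background correction with an offset of 50, where Mki67, Mcm6, Ccne1 and Cdk1 had larger differences. The second probe, above background on 2 arrays, differed by -1.88. The authors' deposited table held both Kif2c probes, with differences of -2.52 and -1.88, and no other member apart from Ccne1.

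The other 6 spindle genes were, like Kif2c, highest in wild-type 11. Prc1, which bundles microtubules of the midzone, differed by -0.51, Nusap1, a microtubule-binding protein, by -0.58, Tpx2, which activates Aurka, by -0.36, and the kinesin Kif20a by -0.23. Without wild-type 11 these were 0.22, -0.03, 0.22 and 0.19. Hmmr differed by -0.09 and by 0.04 without that array. Kif11, the kinesin that separates the poles, differed by 0.07 and by 0.69 without wild-type 11. It was above background in c-Jun-deleted 1 and wild-type 11 alone, so the 0.69 is set against wild-type values under background.

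Mki67 and Top2a, a pair used as proliferation markers, did not share a pattern. Mki67, which coats mitotic chromosomes, was at 2.79 and 1.81 in the c-Jun-deleted arrays, against 3.00, 3.28 and 4.12 in wild-type 5, 11 and 14. Both c-Jun-deleted arrays were below the wild-type range, with a difference of -1.17 (SE 0.46, adjusted p = 0.419), and here wild-type 14, not wild-type 11, was the highest. The second probe had the same order of arrays and a difference of -1.1997. Leaving out wild-type 11 gave -1.26, and leaving out c-Jun-deleted 9 gave -0.68. Top2a, topoisomerase II alpha, was at -1.55 and -1.67, against -2.002, -0.22 and -1.86, so that both c-Jun-deleted arrays lay above wild-type 5 and 14 and below wild-type 11. Its difference of -0.25 (SE 0.60, adjusted p = 0.881) became 0.32 without wild-type 11.

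**Figure D5:**
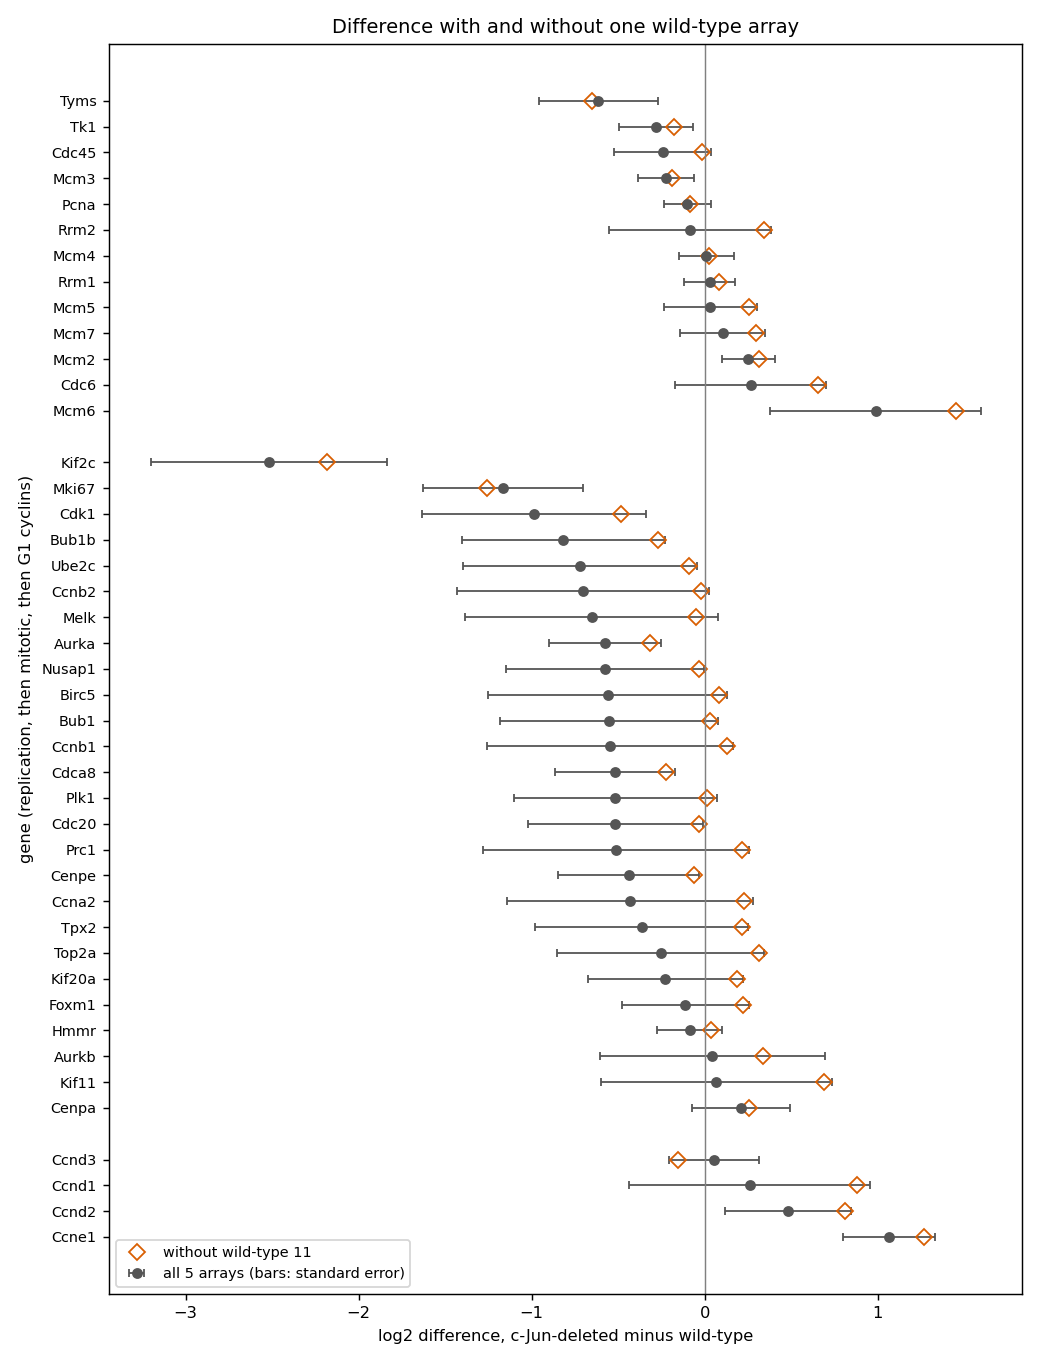
Log2 difference, c-Jun-deleted minus wild-type (x axis), of each tested gene with all 5 arrays (grey points, bars are SE) and without wild-type 11 (open diamonds). Most mitotic diamonds lie near 0, whereas Mki67 at -1.26 and Kif2c at -2.18 stay low, and Ccne1 at 1.27 stays high. The diamond of Mcm6 is at 1.45, but its groups overlap over all 5 arrays.

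Within slide 1, which held c-Jun-deleted 1 and wild-type 5, the median mitotic difference was 0.30 with 20 of 26 genes higher; within slide 2, which held c-Jun-deleted 9 and wild-type 11 and 14, it was -0.995 with 25 of 26 genes lower. The mitotic direction was thus opposite between the slides, and slide 1 had no replicate. The median within slide 2 includes wild-type 11, the array that stood apart. Relative to the wild-type mean, the mitotic average was 0.92 there, -0.38 in wild-type 14 and -0.77 in c-Jun-deleted 9. The parts of the slide and of that array were not tested. With the slide as a block the median mitotic difference was -0.45. Replication genes had medians of 0.21 within slide 1 and -0.15 within slide 2, and of 0.03 with the block. G1 cyclins had medians of 0.92 and 0.19 within the slides, and of 0.39 with the block.

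Further lists cover the rest of the pathway. None of their genes passed limma's test at an adjusted p of 0.05. At an unadjusted p of 0.05, 12.1% of all genes passed it. Of all genes, 13.3% lay above the wild-type range and 20.2% below it. Of 16 tested inhibitors and pocket proteins, 8 were higher and 8 lower in the c-Jun-deleted arrays, and 1 passed at an unadjusted p of 0.05, Cdkn1a. This gene, which encodes the Cdk inhibitor p21, was at 2.09 and 1.54 in the c-Jun-deleted arrays, against 2.81, 3.42 and 2.79 in the wild-type arrays. The groups did not overlap, with a difference of -1.19 (SE 0.30, adjusted p = 0.284), and -0.98 without wild-type 11. Cdkn2a, whose locus encodes the Cdk4 inhibitor p16 and Arf, and its neighbour Cdkn2b differed by 2.75 (SE 1.09, adjusted p = 0.418) and 1.09 (SE 0.49, adjusted p = 0.442), both above the wild-type range. Cdkn2a was at 2.92 and 2.11 in the c-Jun-deleted arrays, against 1.62, -0.37 and -1.95 in the wild-type arrays, which spread more widely than the group means differed. Cdkn1a, Cdkn2a and Cdkn2b had 2 probes each, and the values here are those of the brightest alone.

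Of 17 tested E2F, DREAM and MuvB factors, 8 were higher and 9 lower. E2f2, an activator of replication genes, was at 2.89 and 3.42 in the c-Jun-deleted arrays, against 1.25, 1.60 and 0.59 in the wild-type arrays. Every c-Jun-deleted value was above every wild-type value, as for 13.3% of all genes, with a difference of 2.01 (SE 0.36, adjusted p = 0.227). E2f2 was the only gene of its list to pass limma's test at an unadjusted p of 0.05, against 12.1% of all genes. Myc and E2f1 differed by 0.72 and -0.47. Of 12 kinases and phosphatases of G1 and G2, 7 were higher and 5 lower, with Cdc25b, a phosphatase that activates Cdk1, at 1.13, Wee1, the kinase that restrains it, at 0.71, and Cks2, a Cdk subunit, at -0.40. Cdc25b alone in this list passed an unadjusted p of 0.05 in limma, against 12.1% of all genes (adjusted p = 0.332). It lay above the wild-type range (13.3% of all genes did) and Cks2 below it (20.2% did), while Wee1 overlapped.

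Of 38 other replication genes, 20 were higher and 18 lower. Rpa1, which covers single-stranded DNA, differed by 0.51 (adjusted p = 0.300), Pold1, the catalytic subunit of polymerase delta, by 0.78 (adjusted p = 0.304) and Cdt1, a licensing factor, by 0.47 (adjusted p = 0.325). These 3 were the genes of the list that passed an unadjusted p of 0.05 in limma, against 12.1% of all genes. For each the c-Jun-deleted arrays lay above the wild-type range. Of the 38 genes, 7 lay above that range and 3 below it, against 13.3% and 20.2% of all genes. Wild-type 11 was highest for 13 of the 38 (34.2%), against 22.3% of all genes. None of the 38 stood more than 1 log2 unit above the next array there, against 2.37% of all genes.

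Of 44 other mitotic genes, 31 were lower and 13 higher, with a median of -0.24 that was 0.11 without wild-type 11. That array was the highest for 30 of the 44 (68.2%), against 22.3% of all genes. It stood more than 1 log2 unit above the next for 10 (22.7%), against 2.37% of all genes. Iqgap3, a scaffold of the cell cortex, and Ckap2, a spindle protein, differed by -1.51 (adjusted p = 0.336) and -1.56 (adjusted p = 0.341), and Racgap1, a part of the centralspindlin complex of cytokinesis, by 0.91 (adjusted p = 0.382). These 3 alone in the list passed an unadjusted p of 0.05 in limma, against 12.1% of all genes. Their groups did not overlap, as for 33.5% of all genes, and Ckap2 was above background in 1 of 2 c-Jun-deleted arrays. Racgap1 had 2 probes, and its value is that of the brightest alone.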

How the data were processed

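The scanner files of 5 Agilent 1-colour arrays were read. The authors' scanner files hold spot intensity as written by Feature Extraction 11.5.1.1, per the file headers: the processed signal is background-subtracted and not scaled between arrays. The files' flags (well above background, outlier, saturated) served as filters. The deposited table of the series holds log2 group means, per its header, with an unknown baseline, so differences between its columns alone were used; 4 wild-type arrays are named in its header, and 1 of them was not analysed here.

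Log2 of the processed signal minus log2 of its 75th percentile over the 59305 spots of each array that are no controls was computed, with flagged spots left out and spots of a probe averaged. Probes well above background on at least 2 arrays were kept (32830 of 55681), and 247 of them lacked a value because of a flagged spot. Probes were named by accession through a table of GRCm38.p6 symbols (28026 matched); the array was designed on mm9, so genes have no coordinates here. A gene was its brightest probe, and unnamed probes entered as they were, giving 27956 genes (14657 named). The group difference was fitted in R 4.3.3 with limma 3.58.1 (lmFit, eBayes, 2-sided, no covariate, Benjamini-Hochberg). With 2 against 3 arrays an exact permutation p cannot go below 0.1, so none is given. The scripts were tested on simulated data.

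Slides were read from the barcode, and scan time coincides with them. Alternatives were the scaling, normexp (offset 50, on the median signal, since the files have no mean signal), the filter, the probe rule, flagged spots, array weights, the slide and leaving out each array. Values on every array are given for Mki67, Top2a, Ccnb1, Cdk1, Mcm2, Mcm5, Pcna, Rrm2, Ccnd1, Ccnd2, Ccne1 and up to 5 genes of each arm with the smallest p, and of each other list the 3 smallest p are named; Cdkn1a, Jun and Lyz2 are always named, and the sex-linked genes were added after their values were seen. Members, lists and tests were chosen with earlier results of these data known. The number of arrays limits the precision.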

Additional observations from a re-analysis of the deposited data

How the results depend on the processing

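No member passed an adjusted p of 0.05 in limma under any of the 15 tested alternatives; the smallest over the 19 genes given on every array was 0.140 (Ccne1, median centring). Of 305 alternative differences of these genes, 279 kept their direction and 26 turned, and 10 genes never turned. No paired analysis was possible because the titles of the groups share no replicate number. Members above the wild-type range numbered 6 under median centring (24% of all genes lay above it) and 4 within slide 2 (30.7%). With an array left out they numbered 2 to 13. The shares of all genes were then 16.1% to 24.8% in another order, with 19.9% beside the 13. Members below the range numbered 3 under quantile normalisation (16.1% of all genes lay below it), 1 under median centring (5.44%) and 3 under normexp (16.7%). Within slide 2, where 1 array is set against 2, they numbered 26 (39.7%). With an array left out they numbered 6 to 18. The shares of all genes were then 25.4% to 36%, with 33.7% or 28.1% beside the 6 and 25.4% beside a count of 15. Within slide 1 the median was 0.30 for mitotic genes and 0.92 for G1 cyclins, which ranged over 0.18 to 0.85 with an array left out; for mitotic genes that range was -0.84 to 0.02 and for replication genes -0.13 to 0.08. Within slide 1 the differences turned to 0.45 (Top2a), 0.41 (Ccnb1), 0.38 (Cdk1), 0.0239 (Pcna), 0.53 (Rrm2), 0.15 (Tk1) and -0.0916 (Ccnd3); within slide 2 to -0.15 (Mcm5) and -0.33 (Ccnd1). Pcna was 0.0129 under quantile normalisation and 0.12 under median centring, and Rrm2 was 0.14 under median centring and 0.0059 with the slide block. Array weights gave 0.13 (Top2a), 0.27 (Rrm2) and -0.10 (Ccnd3), and the mean over probes gave -0.0072 for Ccnd3. With an array left out, Top2a ranged over -0.58 to 0.32, Ccnb1 over -0.94 to 0.13, Mcm5 over -0.14 to 0.25, Rrm2 over -0.39 to 0.34, Ccnd1 over -0.15 to 0.88 and Ccnd3 over -0.16 to 0.19. The cause was not tested. With 1 c-Jun-deleted array left out, the other was assumed to vary like the wild type. The authors' deposited table gave values for Ccne1 and Kif2c alone. Aurkb, Kif11, Melk and Kif2c lay near background, where signals limit precision.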
